A study of Mus musculus with 2 samples.

Results

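The synaptic vesicle fusion machinery was examined as the set of genes whose symbols belong to 11 families: synaptotagmins (Syt), syntaxins (Stx), vesicle-associated membrane proteins (Vamp), SNAP proteins, syntaxin-binding proteins (Stxbp), Unc13, Rims, complexins (Cplx), synapsins (Syn), Sv2 and synaptophysin (Syp). Members were chosen by gene symbol in the authors' annotation of the peaks, by a rule that does not use the signal. The choice was made with earlier results of these data known. The rule found 551 of 99782 annotated peaks, assigned to 67 genes, and 2 further genes of these families, Snap29 and Vamp7, had no assigned peak. Chromatin of hippocampal nuclei from CamK-PARIS mice (strain C57BL/6J) was profiled by CUT&Tag, in which an antibody directs a transposase to cut beside its target. There was 1 anti-FLAG library, which captures PARIS by its tag, and 1 IgG control library. Both come from untreated tissue of that genotype, and tissue without it was not analysed here. Age, number of animals and the cells that carry FLAG-tagged PARIS are not given in the sources used here. All values describe peaks of the anti-FLAG library, which the authors had called against the IgG library. With 1 library per antibody no value has a replicate error, and no difference was tested. In bulk tissue, signal in fewer cells and weaker signal per cell cannot be told apart.

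Synaptic vesicles fuse with the presynaptic membrane when a vesicle SNARE (a VAMP) zips up with the target-membrane SNAREs syntaxin and SNAP25. Stxbp and Unc13 proteins prepare the SNAREs for this step, and Rims proteins hold vesicles at the active zone. Complexins and those synaptotagmins that bind calcium couple fusion to calcium entry. Synapsins, Sv2 proteins and synaptophysin sit on the vesicle itself. PARIS, the product of Zfp746, is a zinc-finger repressor that has been linked to the insulin response sequence, TATTTTT or TATTTTG.

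The sequences under the highest peaks at starts of release genes are shown first, since the results turn on such starts. They are 7 of the 8 windows of 200 bp centred on the region of maximum signal of the highest peaks within 1 kb of a transcription start site (TSS) of 22 genes with a central role in release. All are read 5′ to 3′ on the plus strand of the mm10 build. Capitals mark GC boxes (GGGCGG, or CCGCCC on the other strand) and a core of the RE1 element, CAGCACC followed by any 2 bases and GGACAG. Neither form of the insulin response sequence is in any of these 7 windows.
Unc13a (chr8:71670898-71671097): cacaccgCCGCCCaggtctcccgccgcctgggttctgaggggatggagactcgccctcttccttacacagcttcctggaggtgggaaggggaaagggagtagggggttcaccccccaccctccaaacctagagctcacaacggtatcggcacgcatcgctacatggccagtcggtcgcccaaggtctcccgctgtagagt
Cplx2 (chr13:54302376-54302575): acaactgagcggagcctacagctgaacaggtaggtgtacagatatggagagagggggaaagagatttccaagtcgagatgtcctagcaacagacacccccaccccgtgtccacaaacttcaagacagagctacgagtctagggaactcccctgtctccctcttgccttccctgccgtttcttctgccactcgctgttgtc
Syt1 (chr10:109010984-109011183): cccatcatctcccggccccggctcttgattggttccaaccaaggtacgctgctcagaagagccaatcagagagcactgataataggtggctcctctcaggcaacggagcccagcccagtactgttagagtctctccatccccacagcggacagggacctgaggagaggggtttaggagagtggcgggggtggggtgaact
Syt2 (chr1:134708855-134709054): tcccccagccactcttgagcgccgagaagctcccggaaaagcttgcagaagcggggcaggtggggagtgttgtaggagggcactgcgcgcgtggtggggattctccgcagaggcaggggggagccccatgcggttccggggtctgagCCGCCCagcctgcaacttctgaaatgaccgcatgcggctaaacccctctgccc
Unc13a (chr8:71667797-71667996): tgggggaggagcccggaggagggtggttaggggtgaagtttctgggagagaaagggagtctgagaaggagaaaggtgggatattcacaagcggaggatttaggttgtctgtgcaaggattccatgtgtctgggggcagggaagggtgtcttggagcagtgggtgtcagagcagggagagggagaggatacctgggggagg
Syp (chrX:7638587-7638786): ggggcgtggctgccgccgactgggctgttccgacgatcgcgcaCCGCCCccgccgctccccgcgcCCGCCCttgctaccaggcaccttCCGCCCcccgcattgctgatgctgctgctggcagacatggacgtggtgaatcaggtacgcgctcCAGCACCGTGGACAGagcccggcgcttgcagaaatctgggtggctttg
Syt7 (chr19:10388583-10388782): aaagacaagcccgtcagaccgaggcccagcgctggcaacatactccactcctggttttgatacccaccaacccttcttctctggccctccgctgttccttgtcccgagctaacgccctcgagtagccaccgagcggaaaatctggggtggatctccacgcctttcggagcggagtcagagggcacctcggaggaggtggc
The Cplx2 window lies at a start of transcripts that GENCODE M21 assigns to the non-coding gene Gm48623. That start is at -68791 bp from the gene start of Cplx2 itself. GC boxes are in the Unc13a window with the higher signal, in the Syt2 window and, 3 times, in the Syp window, which also holds the RE1 core. RE1 is the element of the neuronal-gene repressor REST. The search for its core was added after the Syp window had been seen.

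Member genes had a peak at a start more often than protein-coding genes did on average. An assigned peak was present for 67 of 69 member genes, against 70.7% of 21992 protein-coding genes. A peak whose region of maximum signal lay within 1 kb of a TSS was present for 51 of the 69 (73.9%, 95% Wilson interval 62.5 to 82.8), against 41.5% of protein-coding genes. Such a peak that was also not of constant height was present for 41 of the 69 (59.4%), against 28.2%. A peak is called of constant height where its total signal is at least 99% of its maximum signal times its width, a form that most peaks of this library have. Wilson intervals here cover counting error over genes or peaks of 1 library only.

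Over all protein-coding genes this share was higher in longer genes, and over member genes it was not. Member genes had a median length of 41 kb against 17.3 kb for all protein-coding genes. Under 20 kb, 14 of 18 member genes (77.8%) had a peak within 1 kb of a TSS, against 31.5% of all genes of that length. Between 20 and 100 kb the share was 72.7% of 33 member genes against 49.9%, and over 100 kb it was 72.2% of 18 against 63.1%. The gap between member genes and other genes was therefore smallest among long genes, and the member share was similar in the 3 length classes.

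**Figure D1:**
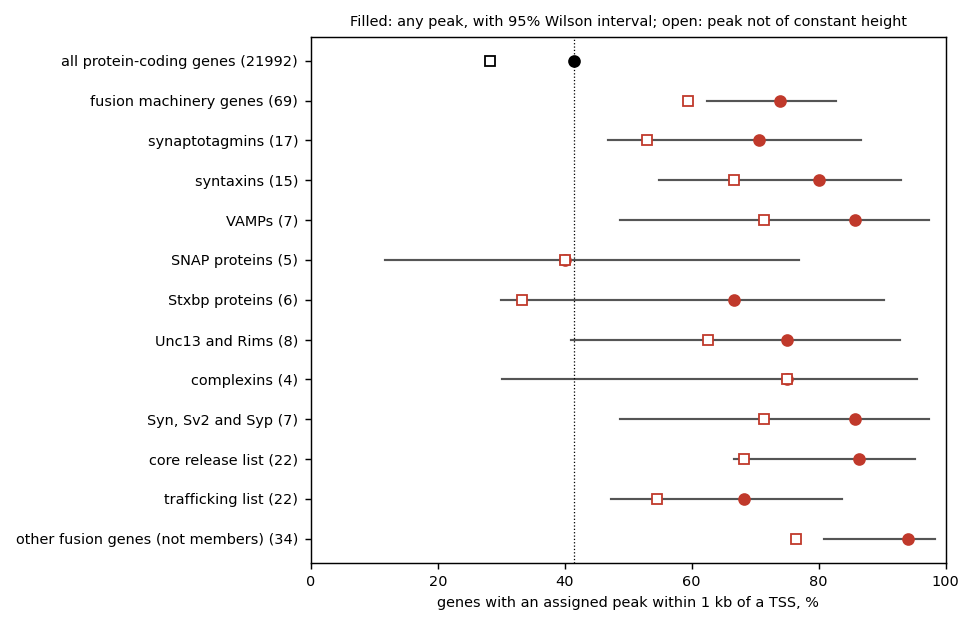
Share of genes with an assigned peak within 1 kb of a TSS (x axis, percent) for all protein-coding genes, the 69 member genes, their role groups and 3 gene lists, with the number of genes in parentheses; filled points count any peak with the 95% Wilson interval, open squares count peaks that are not of constant height. The member genes stand at 73.9%, all protein-coding genes at 41.5% and the 34 fusion genes outside the set at 94.1%; among the role groups only the filled point of the SNAP proteins, at 40% of 5 genes, lies below the dotted line of all genes.

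Counted by peak, the set was close to all peaks in its share near a TSS and in its median signal. For shape, height and position in genes, the share over all peaks lay outside the counting interval of the members. These intervals treat peaks as independent, although 10 genes carried 234 of the 551, so they are too narrow to judge a difference. Member genes were also longer than average, and no difference was tested. A position within 1 kb of a TSS was found for 79 of the 551 (14.3%, 11.7 to 17.5), against 15.3% of all annotated peaks. The median maximum signal, in units of coverage whose scaling is not stated, was 106 with quartiles of 71 and 142, against 101 with quartiles of 66 and 135. Among the highest 10% of all peaks by maximum signal (above 189) there were 73 member peaks (13.2%, 10.7 to 16.3), against 9.94%. Constant height was found for 289 member peaks (52.5%, 48.3 to 56.6), against 63.3%. Introns held 253 member peaks (45.9%, 41.8 to 50.1) against 38% of all peaks, and distal intergenic positions held 133 (24.1%, 20.8 to 27.9) against 31.9%. The first intron held 39.5% of the intronic member peaks and 32.7% of all intronic peaks.

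Member peaks near a TSS were higher and wider than those farther away. Within 1 kb their median maximum signal was 138 and their median width 603 bp, against 116 and 483 bp for all peaks within 1 kb. Beyond 1 kb the medians were 103 and 363 bp, against 99 and 344 bp. Of the 79, 41 had their maximum upstream of the TSS, 23 downstream and 15 on it. Over the whole list the upstream and downstream counts were 6200 and 6061. For 25 of the 79 the assigned TSS was more than 1 kb from the 5′ end of the gene. These peaks lay near other annotated starts, and whether those starts are used was not measured.

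**Figure D2:**
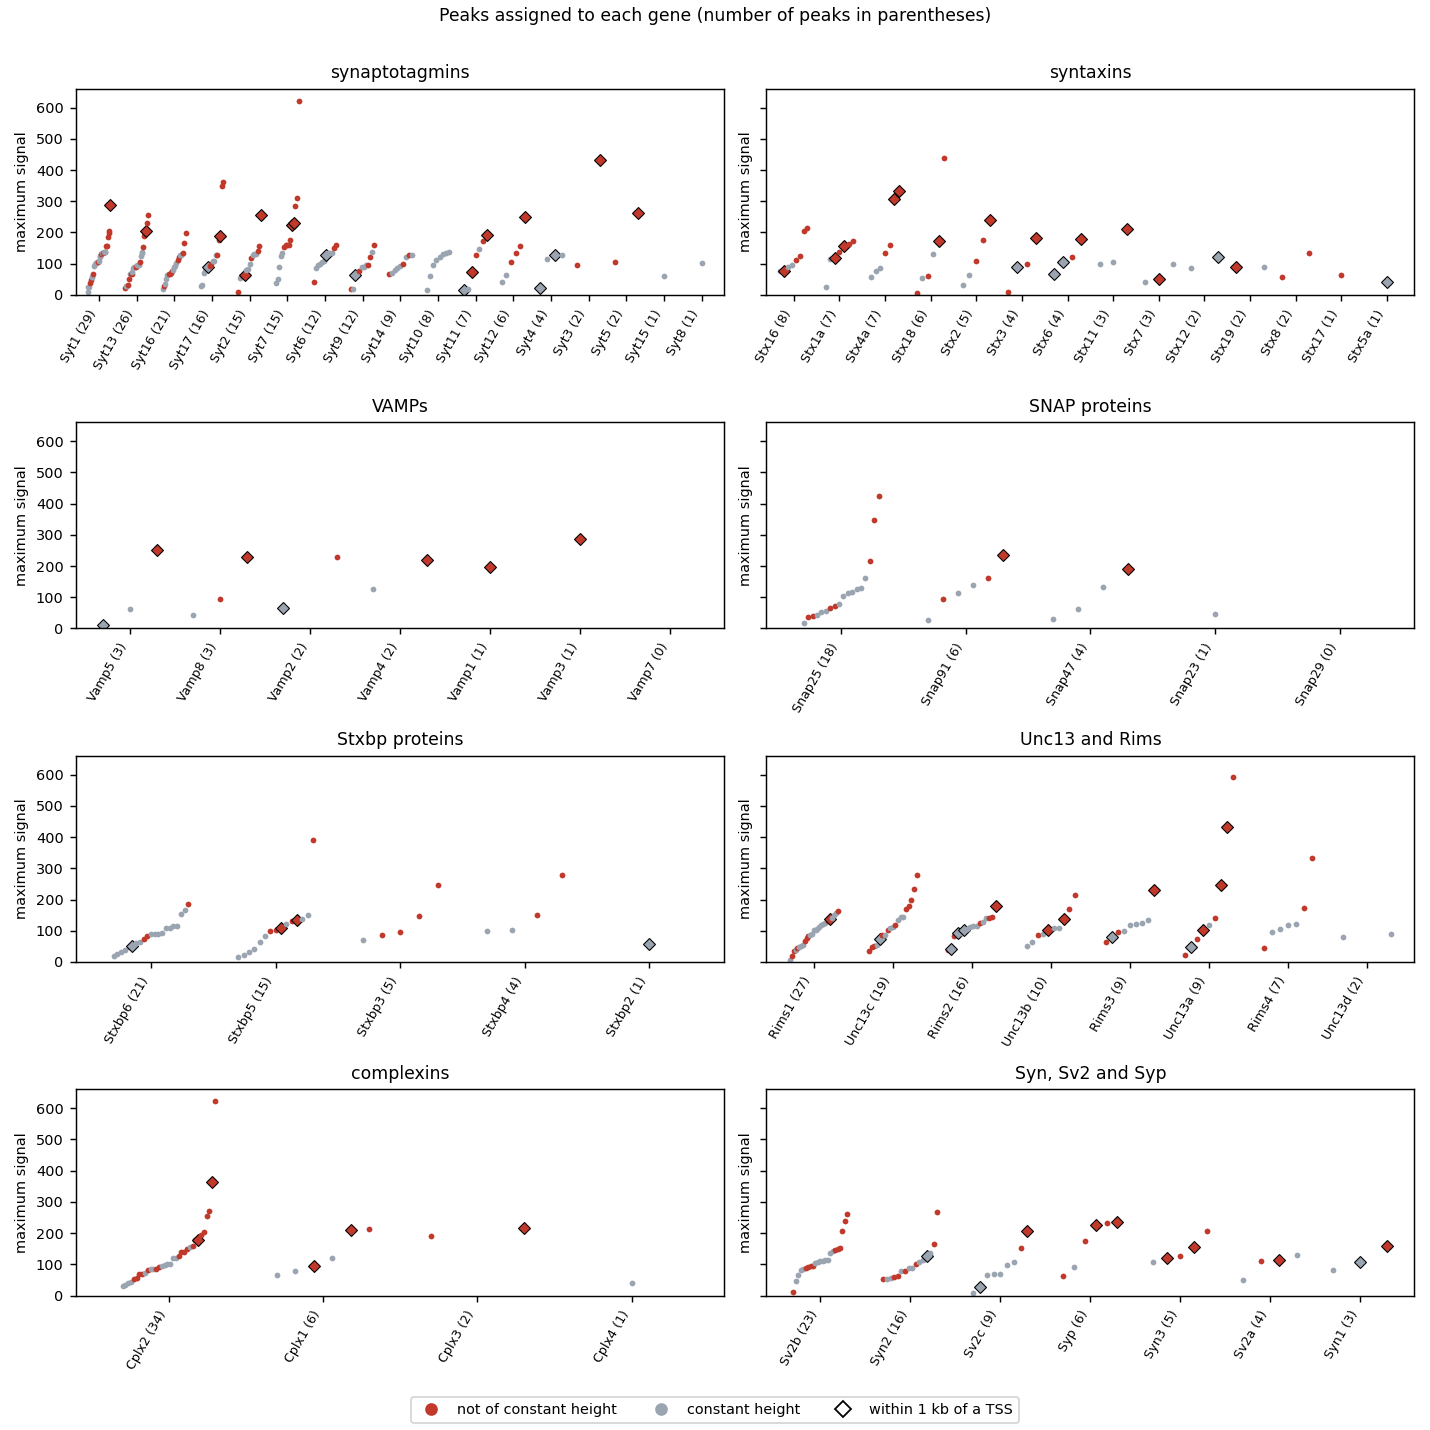
Maximum signal (y axis, linear) of each peak of the member genes reported here, by assigned gene and role group, with the number of peaks per gene in parentheses; red points are peaks not of constant height, grey points are peaks of constant height, and diamonds are peaks within 1 kb of a TSS. Cplx2, Syt1, Rims1 and Syt13 have the most peaks, while the 3 highest peaks, of Cplx2 (622), Syt7 (621) and Unc13a (593), are not diamonds.

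The peaks were spread unevenly over the genes. The 10 genes with the most peaks carried 234 of the 551 (42.5%), 19 genes had 10 or more, and 9 had 1. Over 100 kb from a TSS there were 55 member peaks (9.98%), against 15.2% of all annotated peaks. They belonged to 8 genes, of which Stxbp6 had 13, Syt1 and Unc13c had 11 each, Syt13 had 9 and Rims1 had 6. In turn, 100 of the 446 peaks inside the bodies of member genes were assigned to other genes. In Syn3, 22 of 26 peaks in the body belonged to other genes by this rule, and in Syt1, 19 of 38. Inside the gene body the median density was 7.67 peaks per 100 kb for member genes and 3.31 for all protein-coding genes. It depended on gene length: under 20 kb it was 12.7 against 0, and between 20 and 100 kb 8.33 against 4.45. Over 100 kb it was 5.54 against 4.17.

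Among the synaptotagmins, a family that includes calcium sensors of exocytosis, all 17 genes had peaks (186 in all) and 12 had one within 1 kb of a TSS. Syt1, the main sensor for fast synchronous release in the forebrain, had 29 peaks, and for 13 of them the height was not constant. Its highest peak stood on the gene start (chromosome 10, 109010380 to 109012046, maximum signal 289, total signal 176366), and no other peak of the gene exceeded 204. Of its other peaks, 9 lay upstream of the gene start and 19 in the gene body. Syt7, a slower sensor of high calcium affinity, had 15 peaks, and 10 of them were not of constant height. The highest of these, at 621, was in intron 1 (chromosome 19, 10397626 to 10398677) and ranked 118 in the whole list. The gene start of Syt7 had a peak of 230, and an internal TSS 14928 bp further in had one of 223.

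Syt2, a fast sensor best known from the hindbrain and inhibitory neurons, also had peaks near its gene start and near an internal TSS, but of unequal height. The peak 54 bp upstream of its gene start reached 64, while the one 320 bp upstream of an internal TSS, 62623 bp into the gene, reached 257. Syt9 had 12 peaks and 1 of constant height near a TSS, at 63. Syt13 had 26 peaks, 13 not of constant height, with 204 at the gene start and 257 in intron 1. Syt3 had only 2 peaks, but the one at the TSS reached 431 and was the highest among the synaptotagmins near a TSS. Syt8, Syt10, Syt14, Syt15 and Syt16 had no peak within 1 kb. Of the 21 peaks of Syt16, 10 were assigned through a transcript that is not in GENCODE M21.

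Syntaxins are SNAREs of the target membrane. Stx1a, a neuronal syntaxin of the presynaptic membrane, had 7 peaks, of which the broadest (chromosome 5, 135039027 to 135041528, 2502 bp) had a maximum of 156 but, at 223944, the highest total signal of any syntaxin. It lay at an internal TSS 17578 bp into the gene, and the nearest peak to the 5′ end of Stx1a was 2533 bp away. Stx4a, a plasma-membrane syntaxin of many cell types, had 7 peaks, with 333 on its start, the highest of the syntaxins near a TSS, and 307 at an internal TSS.

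Syntaxins of the secretory and endosomal pathway had peaks as well. Stx16, of the trans-Golgi network, had 8 peaks, the most of the family, with 78 at 334 bp upstream of the TSS and 215 as its highest. Stx18, of the endoplasmic reticulum, had a peak of 438 in intron 6 and one of 173 at an internal TSS. In all, 12 of 15 syntaxin genes had a peak within 1 kb by the authors' assignment, and Stx8 and Stx17 were among those that did not.

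VAMPs, the vesicle SNAREs, had few peaks, but most of them were at gene starts. Of 12 peaks, 7 lay within 1 kb of a TSS, and 6 of the 7 genes had one. Vamp1 had a single peak, of 197, 132 bp upstream of its start. Vamp2, the main synaptic VAMP of the forebrain, had 2 peaks: a narrow one of constant height, at 64, 986 bp upstream of the start, and a wider one of 230 at -1772 bp. The highest VAMP peak belonged to Vamp3, an endosomal VAMP, with 286 at 76 bp upstream of the TSS. Vamp4, of the trans-Golgi network, had the highest total signal of the group (143624) in a peak with a maximum of 218. Vamp5 and Vamp8 had 3 peaks each, with 251 and 229 near a TSS. Vamp7 lies on an unplaced X-linked sequence, and the nearest peak there was 73601 bp from its start.

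Snap25, the neuronal target-membrane partner of syntaxin, had 18 peaks, 7 of them not of constant height. The widest peak of all 551 (chromosome 2, 136711338 to 136714534, 3197 bp, maximum 215, total 208577) covered its gene start, but its region of maximum signal lay 1001 bp upstream, so Snap25 was not counted within 1 kb. The 2 higher peaks of the gene, at 423 and 346, were intergenic, at -34820 and -42906 bp from the TSS. Snap91, which despite its symbol is a clathrin-assembly protein of vesicle recycling, had a peak of 235 at its start. Snap47 had one of 189 at an internal TSS, Snap23 had a single peak of 45 at 7501 bp from a TSS, and the start of Snap29 was 5852 bp from the nearest peak.

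**Figure D3:**
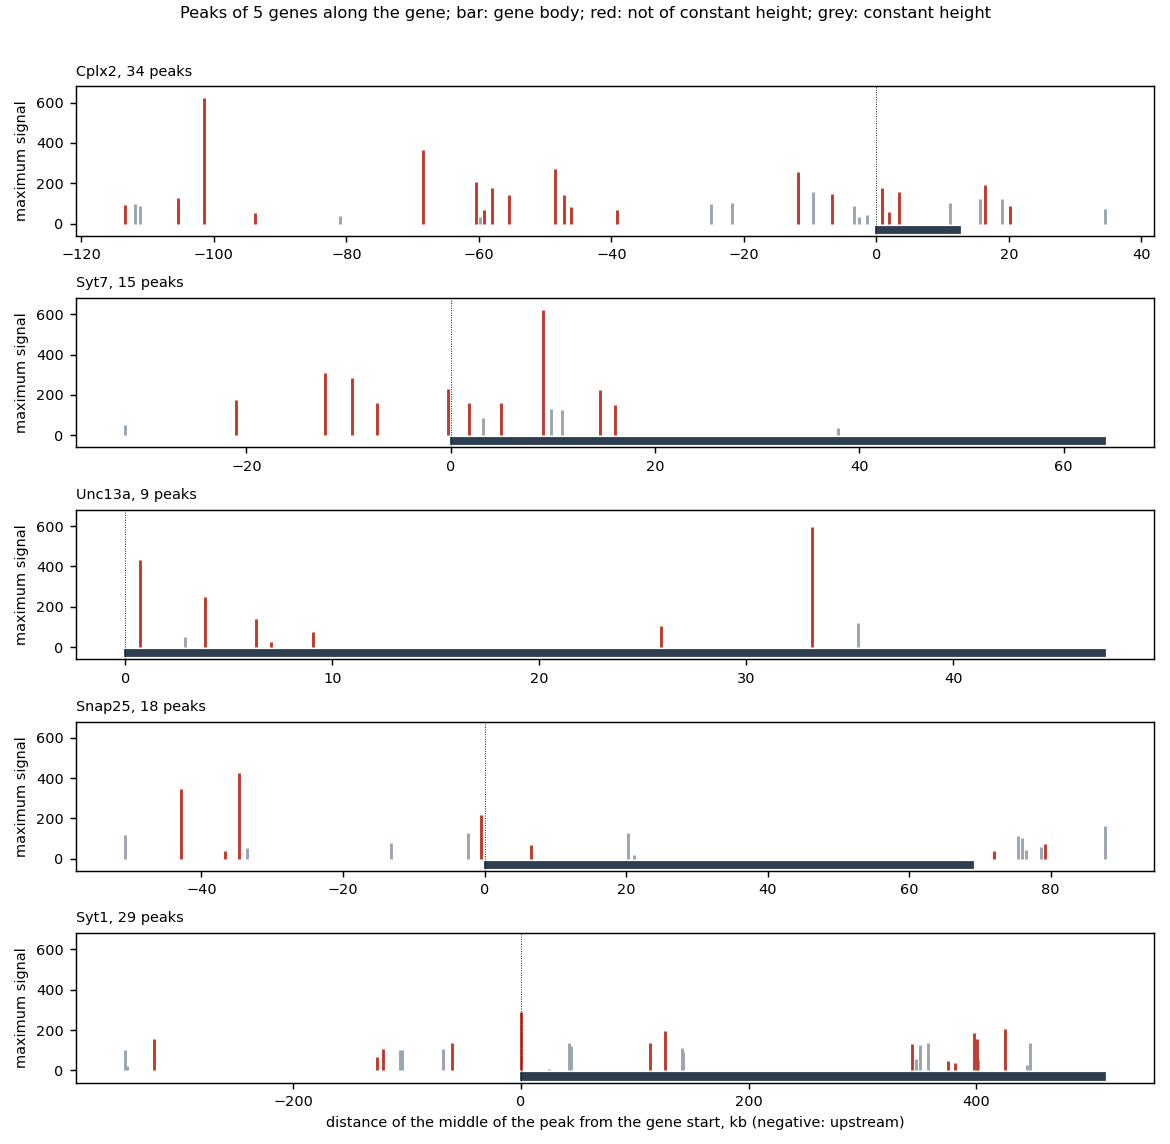
Position and maximum signal (y axis) of the assigned peaks of Cplx2, Syt7, Unc13a, Snap25 and Syt1, against the distance of the middle of the peak from the 5′ end of the gene in kb (x axis, negative upstream, different scale in each panel); the dark bar is the gene body, red lines are peaks not of constant height and grey lines are peaks of constant height. The Snap25 peak of 215 sits on the gene start while its peaks of 423 and 346 lie upstream, and the Cplx2 peaks of 622 and 363 lie far upstream of the gene.

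Stxbp proteins bind syntaxins. Of the 6 genes, 4 had a peak within 1 kb of a TSS. Stxbp5 (tomosyn), an inhibitor of SNARE assembly, had 15 peaks, with 136 and 108 near the TSS. Its highest, at 390, was at -192725 bp, in an intron of the non-coding gene Gm28905. Stxbp6 (amisyn) had 21 peaks, but 18 of them were of constant height. Stxbp2 had 1 peak, of 57, on a TSS, and Stxbp3 and Stxbp4 had none within 1 kb.

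Unc13 proteins prime vesicles and Rims proteins organize the active zone. Unc13a had only 9 peaks, but they included the 2 with the highest total signal of all 551. One, at 375783, was in intron 36 (chromosome 8, 71637511 to 71639639, maximum 593), and the other, at 375576, covered the gene start (71670216 to 71671856, maximum 432). They ranked 96 and 97 in the whole list by total signal. Another peak, of 248, stood at an internal TSS 3675 bp into the gene. The paralogues had lower gene starts, with 138 at 191 bp upstream of Unc13b, 74 at that of Unc13c in a peak of 61 bp, and no peak within 1 kb for Unc13d, which acts in immune cells.

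Rims1 had 27 peaks, the most of this group, 9 of them not constant in height, with 138 at 97 bp upstream of the gene start and no peak above 162. Rims2 had 4 peaks near a TSS. The one at the gene start reached 180 over 1995 bp, and the other 3, at internal starts, were of constant height with maxima from 43 to 101. Rims3 had a peak of 232 just inside its start. The highest of the 7 peaks of Rims4, at 334, had its region of maximum signal 1008 bp upstream of the start.

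Complexins bind the assembled SNARE complex. Cplx2 had 34 assigned peaks, the most of any member. Of these, 17 were assigned through transcripts that carry the name Gm48623 in GENCODE M21, among them the highest peak of the set, at 622 (chromosome 13, 54269653 to 54270137), and the peak of 363 shown above. The other 17 were assigned through Cplx2's own transcript, 7 of them not of constant height, with a highest maximum of 254 and 178 at 887 bp past the gene start. Without the Gm48623 peaks the set held 534 peaks with a median maximum signal of 106.5 and the same share of genes with a peak near a TSS, 73.9%. Cplx1 had 6 peaks, with 95 on its start and 210 at -564 bp. Cplx3, known from retinal ribbon synapses, had 216 on a TSS, and Cplx4 had 1 peak, of 41.

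Of the vesicle proteins, Syp had 6 peaks, 5 of them not of constant height, around a gene of 14.8 kb on the X chromosome. Peaks of 235 (7638526 to 7638979) and 227 (7639541 to 7640171) lay at adjacent starts, and another peak of Syp had the highest total signal of the group, 140467. Syn1, also X-linked, had 3 peaks, with 159 on its start. Syn2 had 16 peaks, and its own start was covered by a peak of 302 that the authors assigned to Gm17733. Its highest assigned peak reached 267, and the one it had near a TSS was an internal peak of 128. Sv2a, the target of the antiepileptic levetiracetam, had 113 at 541 bp past its start. Sv2b had 23 peaks, the most of this group, 11 of them not of constant height, but none nearer than 1799 bp to a TSS.

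The genes with a central role in release were then set beside members that serve general membrane traffic. A peak within 1 kb was present for 19 of 22 core genes (86.4%, 66.7 to 95.3) and for 15 of 22 trafficking genes (68.2%, 47.3 to 83.6). Over all protein-coding genes the share was 41.5%. The difference between the core and trafficking lists, of 18.2 percentage points, had an interval of -6.86 to 40.9, which includes 0, and within 500 bp it was 0. Where a gene had a peak within 1 kb, the highest such peak had a median of 180 in the core list, 182 in the trafficking list, 189 over all member genes and 135 over all protein-coding genes. Core genes had more peaks, with a median of 12 per gene against 2.5, and were longer, with a median of 62.3 kb against 28.5 kb. Of 34 other genes of the fusion pathway, such as Nsf, Bsn, Pclo and Rab3a, 32 had a peak within 1 kb of a TSS and 26 had one not of constant height. The shares over all protein-coding genes were 41.5% and 28.2%. Synpr and Prrt2 had none within 1 kb, and the highest such peak was only 18 for Rab3b and 26 for Doc2b. Nsf, the ATPase that takes SNARE complexes apart, had 436 near its TSS, Rab3a, a vesicle GTPase, had 397, and Rimbp2, an active-zone scaffold, had 347.

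Using the whole peak, any assignment and any annotated TSS, 54 of 69 member genes (78.3%) had a peak within 1 kb, against 47.4% of protein-coding genes. Snap25 and Rims4 were among the genes gained. The 5′ end of the gene was covered by a peak of any assignment in 31 of the 69 genes (44.9%, 33.8 to 56.6), against 20.3% of protein-coding genes, and in 13 of the 22 core genes.

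Sequence at the member peaks was close to that of all peaks at the same distance from a TSS. Within 1 kb of a TSS, GC content was 58.8% ± 10.1 (SD over 79 windows) at the maximum and 48.9% in windows 1000 bp away, against 57.5% and 49.4% for all peaks within 1 kb. Beyond 1 kb it was 47.8% against 44.7% in flanks. A GC box, the binding element of Sp factors, was in 8.35% of all member windows, against 8.46% of the windows of all peaks. Near a TSS it was in 29 of 79 member windows (36.7%, 26.9 to 47.7), against 29.6% of all such windows and 8.23% of the member flanks. Repeat-masked bases made up 9.16% of the member windows near a TSS and 24.6% of those beyond.

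**Figure D4:**
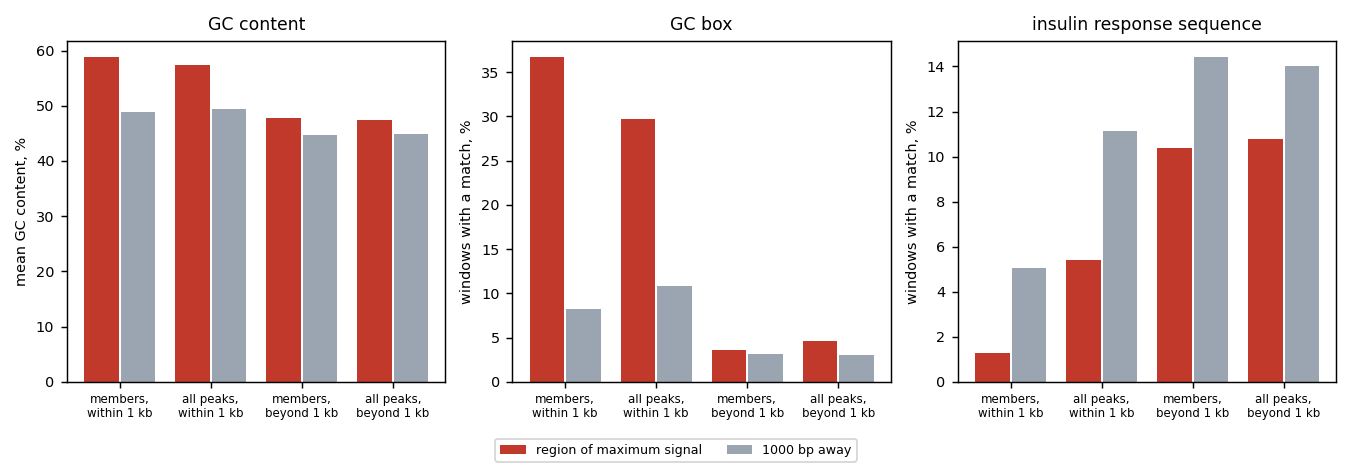
Mean GC content and share of 200 bp windows with a GC box or an insulin response sequence (y axes, percent, from 0) at the region of maximum signal (red) and 1000 bp to either side (grey), for member peaks and all peaks within and beyond 1 kb of a TSS. The member bars follow those of all peaks, with more GC boxes at maxima near a TSS (36.7%) and fewer insulin response sequences at maxima than in flanks in all 4 classes.

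The insulin response sequence was searched on both strands. It was in 50 of 551 member windows (9.07%, 6.95 to 11.8) and in 13.1% of their flanks, a difference of -4.0 percentage points, against -3.61 for all peaks. All peaks had it in 9.95% of windows and 13.6% of flanks. Of the 50 windows, 49 were beyond 1 kb of a TSS. Near a TSS, 1 of 79 member windows held it (1.27%, 0.224 to 6.83), against 5.40% of all such windows. The cyclic-AMP response element, TGACGTCA, was in 1 member window, at Vamp3, and in 0.302% of all windows. The RE1 core was in the Syp window alone among members and in 0.0171% of all windows. The stretch of 41 bases around the Vamp3 match is given here on the plus strand, with the match in capitals.
Vamp3 (chr4:151057961-151058001): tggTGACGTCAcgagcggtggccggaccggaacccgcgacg

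No file of the series measures RNA, so the hippocampal label could not be checked. Peaks at marker genes of cell types are counted here as a description only, since they do not measure expression or brain region. Within 1 kb of a TSS, peaks were present for 4 of 5 markers of excitatory neurons, 4 of 5 of interneurons, 1 of 5 of astrocytes, 2 of 5 of oligodendrocytes and 2 of 5 of microglia. The share over all protein-coding genes was 41.5%. With 5 markers per cell type the Wilson intervals are wide, 37.6 to 96.4% for 4 of 5 and 3.62 to 62.4% for 1 of 5, and both include that share. Peaks not of constant height were within 1 kb for 3, 2, 0, 2 and 0 markers, in the same order, against 28.2% of all protein-coding genes.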

How the data were processed

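The analysis used 2 deposited tables, both of the anti-FLAG library. Reads had been trimmed and mapped to mm10 by Bowtie2, and after removal of duplicates and of reads of low quality, SEACR had called the peaks with IgG as control, per the labels' protocols. Versions, SEACR settings and the scaling of the signal are not given in the sources used here. The deposited signal columns hold, per peak, total signal (coverage summed over its bases) and maximum signal, both whole numbers. The deposited annotation gives the assigned transcript, gene and distance from the region of maximum signal to the TSS, by a tool not given in the sources used here, and its total signal equalled that of the peak list for 100% of annotated peaks. Sequencing depth is unknown.

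The 2 tables were joined by position with Python 3.11.15 and pandas 2.3.3. Genes came from GENCODE M21 and sequence from GRCm38.p6, the same build, and 0 peaks ran past a chromosome end. Coordinates count from 1. Windows of 200 bp, and flanks 1000 bp to either side, were searched for motifs, which was tested on simulated data. Wilson 95% intervals used scipy 1.17.1. The interval of the difference between the core and trafficking lists combines their Wilson intervals. The core list is the release genes named in the report; the trafficking list holds the syntaxins, VAMPs, SNAP and Stxbp proteins and Unc13d of general membrane traffic, and Stx10 was not analysed here. The genes described are the core genes and, in each role group, those with the most peaks, the highest maximum signal and the highest total signal, with genes without a peak. Values of some member genes and sequences that these rules select are not reported here, while counts over members include them. Other genes were named after their values had been seen. The members and lists were chosen with earlier results of these data known. The 8 main results were recomputed under alternative peak sets, distances, windows and assignments.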

Additional observations from a re-analysis of the deposited data

How the results depend on the processing

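The 8 main values were recomputed under 58 alternatives. Of these, 44 left the value within its counting interval (for the number of peaks, within 1.5 times), 14 moved it and 0 reversed it. Only the insulin response sequence, GC and core differences could reverse, since counts, shares and medians have no sign. The core difference of 0 within 500 bp counted as within its interval, which includes 0. Alternatives by whole peak, and without the peaks assigned through Gm48623, were chosen after seeing the data. Without constant-height peaks there were 262 member peaks, with 21% within 1 kb of a TSS, 59.4% of genes with such a peak, a median maximum signal of 138 and a GC difference of 5.76 percentage points. With maximum signal above the median of all peaks these were 295, 18%, 60.9% and 138, and 41.7% were of constant height. At least 200 bp of width left 38.9% of constant height. A limit of 500 bp gave 10.5% of peaks and one of 3 kb gave 24.9%, and 85.5% of genes had a peak within 3 kb. By construction, stricter sets hold fewer peaks, and a floor on maximum signal raises the median maximum signal. In the same way a narrower or wider distance limit lowers or raises the share within it. The cause of the other shifts was not tested. The difference between core and trafficking genes ran from 0 (within 500 bp) to 27.3 percentage points (whole peaks). Assignment by position, gene body and 5 kb on either side, gave 541 peaks, of which 412 were among the 551. No paired analysis was possible because each antibody has 1 library. Without a second library, error between animals or libraries is unknown.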
